A study of Homo sapiens with 7 samples.

Results

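The iron and redox loci of HepG2 cells, FTH1, IREB2, NFE2L2 and ALDH3A1, were examined in 6 lists of H3K27ac super-enhancers (SEs). Every listed row whose nearest gene was one of these 4 was taken, together with any row of another name sharing 1 bp or more with it. This gave 29 of 7472 listed rows, of which 25 carried one of the 4 names, and after merging of overlapping rows 4 of 1784 regions. The 4 genes were chosen by the very values described here, the naming of rows and the H3K27ac signal in TM and DMSO libraries. Their own values are therefore described without a test.

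HepG2 is an established human liver cancer line. The treated cells had received tunicamycin (TM), which blocks N-linked glycosylation and so causes endoplasmic reticulum stress (ERS), and the control cells had received DMSO, its solvent. There were 3 H3K27ac ChIP-seq libraries in each group, called TM 1 to TM 3 and DMSO 1 to DMSO 3. Neither labels nor methods give the dose and duration of TM for the ChIP-seq, and the labels do not say that the libraries came from separate cultures. The p-values given for other genes therefore measure only the spread between these libraries, which may be technical. Acetylation of lysine 27 on histone H3 marks active enhancers and promoters, and an SE is a long stretch in which many such peaks lie close together.

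Cells store surplus iron inside ferritin, whose heavy chain, encoded by FTH1, oxidises iron so that it can be held safely in the shell. When iron is scarce, IREB2 (iron regulatory protein IRP2) binds iron-responsive elements in messenger RNAs, blocking ferritin translation and protecting the transferrin receptor message. NFE2L2 encodes NRF2, the transcription factor that turns on antioxidant and detoxification genes, the ferritin genes among them, and ALDH3A1 is an aldehyde dehydrogenase that clears aldehydes formed by lipid peroxidation. The liver is a main store of body iron and a main site of detoxification.

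All 4 loci lay among the 670 merged regions called in all 6 libraries, which were 37.6% of all merged regions. None was among the regions found in every TM list but no DMSO list (7.57% of merged regions) or the reverse (5.44%). The readings of each locus were taken from the lists: the listed length, the number of stitched peaks, the summed H3K27ac signal in the authors' arbitrary units, and the density, which is the summed signal divided by the listed length in bp. The median density of the 670 regions was on average 0.38 higher in TM on the log2 scale, while their median summed signal differed by −0.008. The median log2 difference in their listed length was −0.25. Density and summed signal are also given relative to the library's own median over these regions. This centring lowers TM minus DMSO differences in density by 0.38 and hardly changes those in summed signal. A value of 1 on that relative scale is a region at the median.

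The lists of TM 1 to TM 3 held 1130, 1507 and 1253 rows, and those of DMSO 1 to DMSO 3 held 1132, 1290 and 1160. A row had to reach a summed signal of 18282, 26265 and 18884 to be listed in TM 1 to TM 3, and of 24793, 16747 and 24383 in DMSO 1 to DMSO 3. Read totals are not known, so no interval for counting error could be set. The liver identity of the lists was checked by nearest gene, which is a weak check since a row can be named for a neighbour. Of 28 hepatocyte and HepG2 markers only FOXA1 was linked, in 2 DMSO libraries, and ALB, AFP and HNF4A were linked in none. Of 8 other epithelial markers 4 were linked (ELF3 in all 6 libraries, GRHL2 in 0 TM and 3 DMSO, KRT80 in 2 TM and 1 DMSO, KRT7 in 1 TM), as were 2 of 12 mesenchymal and endothelial markers (LUM in 0 TM and 3 DMSO, PDGFRB in 1 TM and 3 DMSO). No share over all genes was computed for these counts. By nearest gene the lists of neither group showed a liver identity, so the name HepG2 rests on the labels and the study. The region of KRT7 and KRT80, called in all 6 libraries, had a higher summed signal in TM, with a centred log2 difference of 0.86 ± 0.13 (limma adjusted p = 0.0042, and 0.11 without centring). Its centred difference in density was −0.01 ± 0.13 (limma adjusted p = 0.95), and its log2 difference in listed length was 0.48. Density at ELF3 was lower in TM, with a centred difference of −0.40 ± 0.11 (limma adjusted p = 0.040), but −0.02 without centring (limma adjusted p = 0.96), and the call was lost without TM 3 or any DMSO library (limma adjusted p from 0.10 to 0.12). Summed signal at ELF3 had a centred difference of −0.05 ± 0.16 (limma adjusted p = 0.83). The part of these cell type markers in the values below was not tested.

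Promoter sequences are shown for genes with start sites inside all 6 rows of a locus, and a microRNA sequence is shown for MIR3128. They come from RefSeq on GRCh38.p14. The deposited coordinates belong to another build, which no source names, and they are printed as deposited. The RefSeq table held IREB2 and NFE2L2; FTH1 and ALDH3A1 are named only. Each promoter is the 250 bases before the outermost RefSeq start site, on the gene's strand, which need not be a start site used by the lists. Measured from MIR3128, the NFE2L2 window lies between the NFE2L2 start sites used by the lists and borders neither. Capitals mark GC boxes (GGGCGG or its reverse complement), the binding motif of SP1-type factors. The microRNA MIR3128 lies within NFE2L2, on the same strand, and lent its name to 4 of the 6 rows over that gene. Capitals in its mature form mark the seed, bases 2 to 8.
IREB2 (chr15:78437966-78438215, plus strand): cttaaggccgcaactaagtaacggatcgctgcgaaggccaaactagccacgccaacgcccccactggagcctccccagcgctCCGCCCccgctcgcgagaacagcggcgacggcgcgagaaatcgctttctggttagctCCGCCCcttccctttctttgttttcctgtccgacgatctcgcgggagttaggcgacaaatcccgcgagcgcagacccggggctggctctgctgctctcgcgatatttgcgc
NFE2L2 (chr2:177264728-177264977, minus strand): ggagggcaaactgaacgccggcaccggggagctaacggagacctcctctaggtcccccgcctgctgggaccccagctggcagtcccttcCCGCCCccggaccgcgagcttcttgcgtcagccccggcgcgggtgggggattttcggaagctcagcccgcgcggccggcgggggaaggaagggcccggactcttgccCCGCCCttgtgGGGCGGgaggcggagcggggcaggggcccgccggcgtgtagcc
hsa-miR-3128 (chr2:177255984-177256006, minus strand): uCUGGCAAguaaaaaacucucau

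The IREB2 window held 2 GC boxes and 63.2% G and C, and the NFE2L2 window held 3 GC boxes and 74.8% G and C. Across 35116 RefSeq promoter windows of the same length, 42.6% held a GC box on either strand and the median G and C content was 58.0%. Neither window held the core of the antioxidant response element bound by NRF2 (TGACNNNGC, in 10.9% of all windows), the amino acid response element bound by ATF4 (TGATGCAA, in 0.772%), the cAMP response element (TGACGTCA, in 1.65%) or the unfolded protein response element (TGACGTGG, in 0.612%). Both strands were searched, and no match says only that these letters are not in the window.

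FTH1 carried more H3K27ac in TM cells, both in summed signal and in density over the whole locus. The locus (chr11:61714297-61825369 as deposited) was named FTH1 in all 6 libraries (as 26.1% of linked genes were), through 11 rows. Its summed signal was 116481, 155880 and 128211 in TM 1 to TM 3, against 78204, 53735 and 75354 in DMSO 1 to DMSO 3. The lowest TM library stood above the highest DMSO library, and the groups did not overlap. The mean was 133524 ± 20230 in TM cells and 69098 ± 13381 in DMSO cells (SD, n = 3 each), a ratio of 1.93. Relative to the library median the summed signal was 3.12, 2.35 and 3.00 in TM libraries and 1.48, 1.41 and 1.41 in DMSO libraries, a difference of 0.97 ± 0.13 on the log2 scale (SE, n = 3 per group).

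Density at FTH1 differed in the same direction by a smaller amount. Without centring, the log2 differences were 0.78 in density and 0.96 in summed signal, closer together than the centred ones. It was 1.20, 1.63 and 1.37 per bp in TM 1 to TM 3, against 0.849, 0.728 and 0.849 in DMSO 1 to DMSO 3. Over the library median it was 1.50, 1.44 and 1.46 in TM cells and 1.08, 1.13 and 1.11 in DMSO cells, so replicates lay close together and the groups were apart. DMSO 3 listed the locus as 1 joined row, so its length held the gap described below, which the other libraries left out. Its density was thus taken over an unlike stretch, and the closeness of the DMSO values depends on this. The difference of 0.40 ± 0.03 on the centred log2 scale became 0.78 when the values were left on the deposited scale. That scale holds the mean difference of 0.38 between the library medians of TM and DMSO. The TM libraries were not shifted alike, since the median density was 0.802 in TM 1 and 0.788 in DMSO 1. Without DMSO 3 the centred difference was 0.41. Among the 670 regions FTH1 stood 84th from the highest by density difference and 15th by summed signal.

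The FTH1 locus was made of a pair of stretches separated by a gap, and 26.1% of the 670 regions likewise held more than 1 row in some library. The near stretch lay around the FTH1 start site, or in DMSO 2 just upstream of it, and in TM 1 to TM 3 and DMSO 1 its midpoint was annotated to the transcript end of BEST1, a chloride channel gene. The far stretch was intergenic with its midpoint 57.7 to 60.4 kb upstream of FTH1. The gap between them was 14136, 12854 and 16326 bp in TM 1 to TM 3 and 15835 and 13116 bp in DMSO 1 and DMSO 2, while DMSO 3 listed both as 1 row of 88.7 kb. The smallest gap between any rows of a list was 12507 bp, so these gaps were close to the distance at which rows were joined.

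The far stretch had nearly the same length in the 5 libraries that listed it on its own. It measured 59.5, 61.1 and 59.6 kb in TM 1 to TM 3 and 56.3 and 57.8 kb in DMSO 1 and DMSO 2. Its density over the library median was 1.30, 1.22 and 1.23 in TM 1 to TM 3, against 1.04 and 0.942 in DMSO 1 and DMSO 2. At nearly equal length, then, the density of the far stretch was above that of both DMSO libraries in each TM library. It ranked 125th, 231st and 137th in the TM lists and 462nd and 441st in the DMSO lists.

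The near stretch was less uniform in DMSO cells. It measured 37.2, 34.7 and 34.1 kb in TM 1 to TM 3, against 35.8 kb in DMSO 1 and 16.0 kb in DMSO 2. Its density over the library median was 1.83, 1.82 and 1.86 in TM 1 to TM 3, against 1.13 in DMSO 1 and 1.83 in DMSO 2. DMSO 2 thus reached the TM density over a much shorter stretch, and its row began 109 bp upstream of the FTH1 start site, which it left out. The start site lay inside a row in the 3 TM libraries, DMSO 1 and DMSO 3. In rank the near stretch was 169th, 310th and 175th in the TM lists, against 793rd in DMSO 1 and 1118th in DMSO 2, where its signal was 1.12 times the lowest listed value.

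The extent of FTH1 varied less than its signal. The listed length was 96.7, 95.8 and 93.7 kb in TM 1 to TM 3, against 92.1, 73.8 and 88.7 kb in DMSO 1 to DMSO 3. The TM values lay above the DMSO values, though TM 3 and DMSO 1 were close. Stitched peaks numbered 27, 22 and 17 in TM libraries and 20, 19 and 22 in DMSO libraries, and these overlapped. Rows of all 6 libraries covered 70.3 kb in common, and only 1.14 kb was listed in 3 TM and 0 DMSO libraries.

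**Figure D1:**
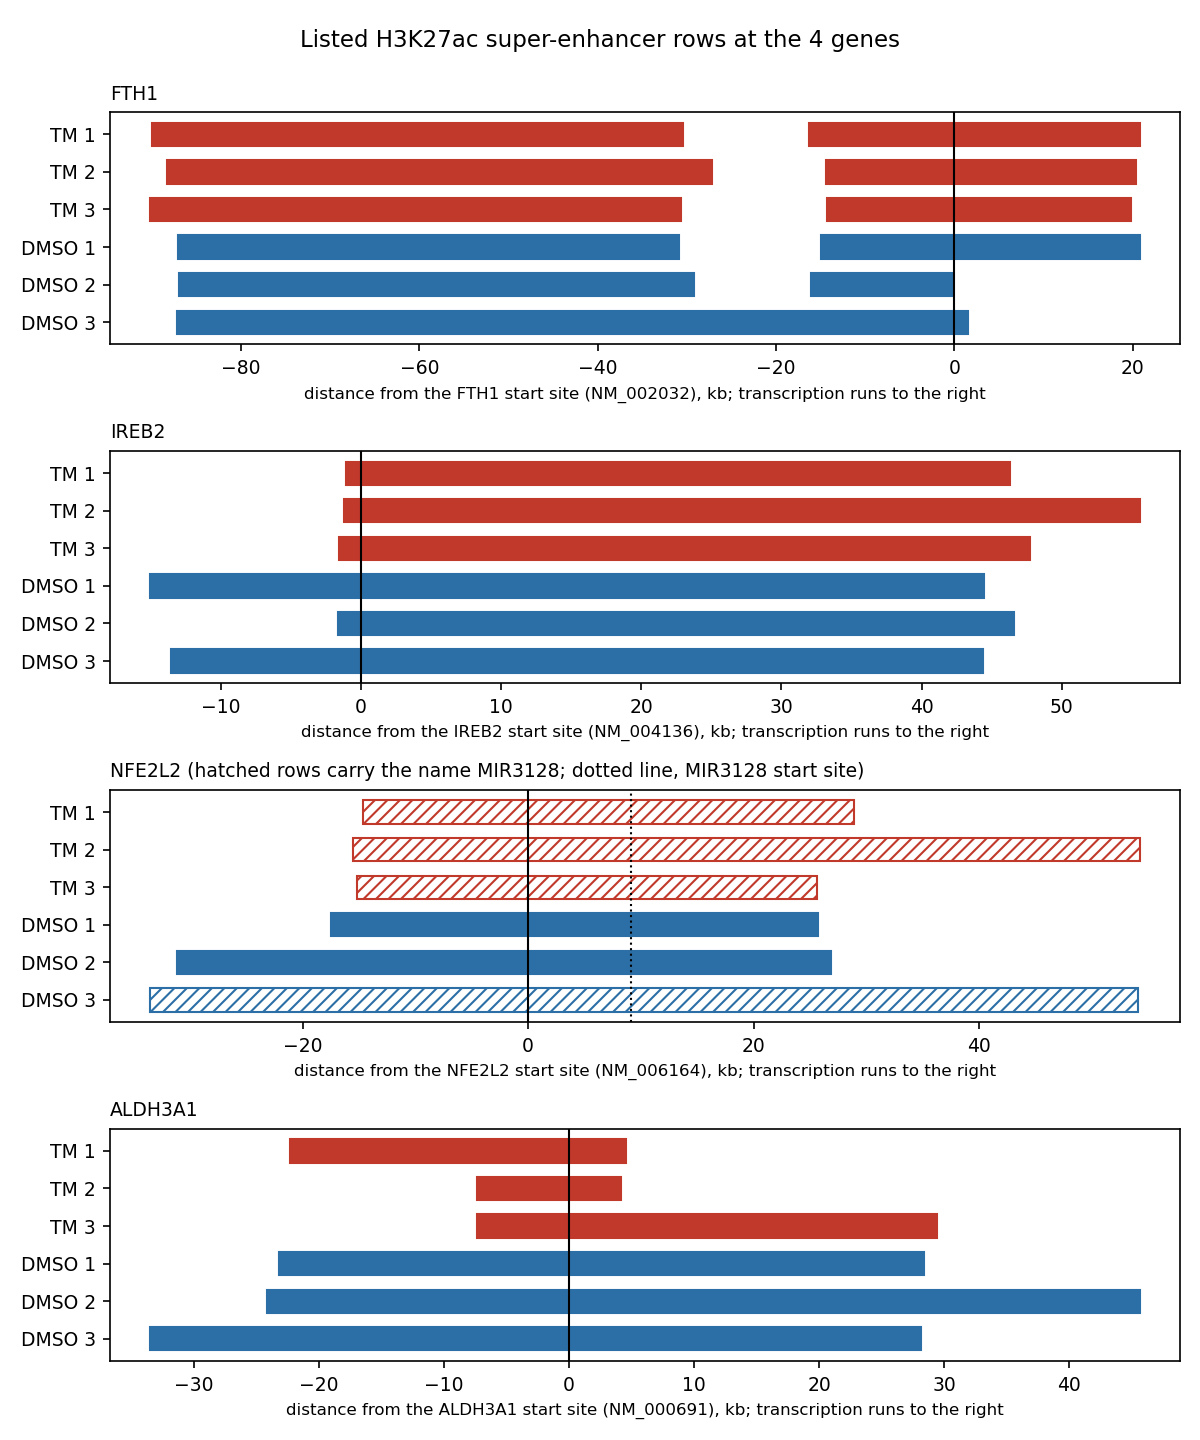
Listed SE rows at each locus, as bars along the distance in kb from the gene's start site (x axis, transcription to the right), with the 3 TM libraries above the 3 DMSO libraries. At FTH1 a pair of stretches appears in 5 libraries and 1 joined row in DMSO 3, and at NFE2L2 a row crosses the start site in all 6 libraries although 4 rows (hatched) carry the name MIR3128.

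IREB2 went the other way when each library was set against its own median. The locus (chr15:78715431-78786123 as deposited) was 1 row in each of the 6 libraries, each named IREB2. Density over the library median was 1.40, 1.39 and 1.41 in TM 1 to TM 3, against 2.05, 2.12 and 2.09 in DMSO 1 to DMSO 3. The mean was 1.40 ± 0.011 in TM cells and 2.09 ± 0.038 in DMSO cells (SD, n = 3 each), and the groups did not overlap. IREB2 thus stood denser than 97.3% to 98.2% of the 670 regions in DMSO libraries and than 74.9% to 80.4% of them in TM libraries. The centred difference was −0.58 ± 0.02 on the log2 scale (SE, n = 3 per group), the 650th of 670 from the highest.

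On the deposited scale the IREB2 groups overlapped. Density was 1.12, 1.57 and 1.32 in TM 1 to TM 3, against 1.61, 1.36 and 1.59 in DMSO 1 to DMSO 3, and TM 2 lay above DMSO 2. The uncentred difference was −0.20 on the log2 scale, so the direction was kept and its size depended on the centring. Summed signal was 53238, 89149 and 65150 in TM cells and 96112, 65884 and 92168 in DMSO cells, which also overlapped. Over the library median the summed signal was 1.42, 1.34 and 1.53 in TM cells and 1.82, 1.72 and 1.73 in DMSO cells, with a centred difference of −0.30 ± 0.06 on the log2 scale.

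The rows at IREB2 shared most of their length. They covered 45.5 kb in common, which included the IREB2 start site used by the lists. Their midpoints fell in intron 2 of 21 in 5 libraries and in exon 4 of 22 in TM 2. The rows began 1076, 1225 and 1597 bp upstream of the start site in TM 1 to TM 3 and 1687 bp upstream in DMSO 2, but 15087 and 13574 bp upstream in DMSO 1 and DMSO 3. The upstream extension was thus seen in 2 of 3 DMSO libraries and in none of the TM libraries. DMSO 2, at 48.3 kb and 6 peaks, had nearly the bounds of the TM rows (47.4, 56.8 and 49.4 kb, 6 peaks each). Its density over the median was 2.12, in the library with the lowest median density (0.642). As deposited, its density of 1.36 lay within the TM range of 1.12 to 1.57. In DMSO 1 and DMSO 3, with 59.5 and 58.0 kb, 11 and 10 peaks were stitched. Rank in the list was 180th, 217th and 153rd in TM libraries and 138th, 137th and 161st in DMSO libraries, so the ranks overlapped.

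**Figure D2:**
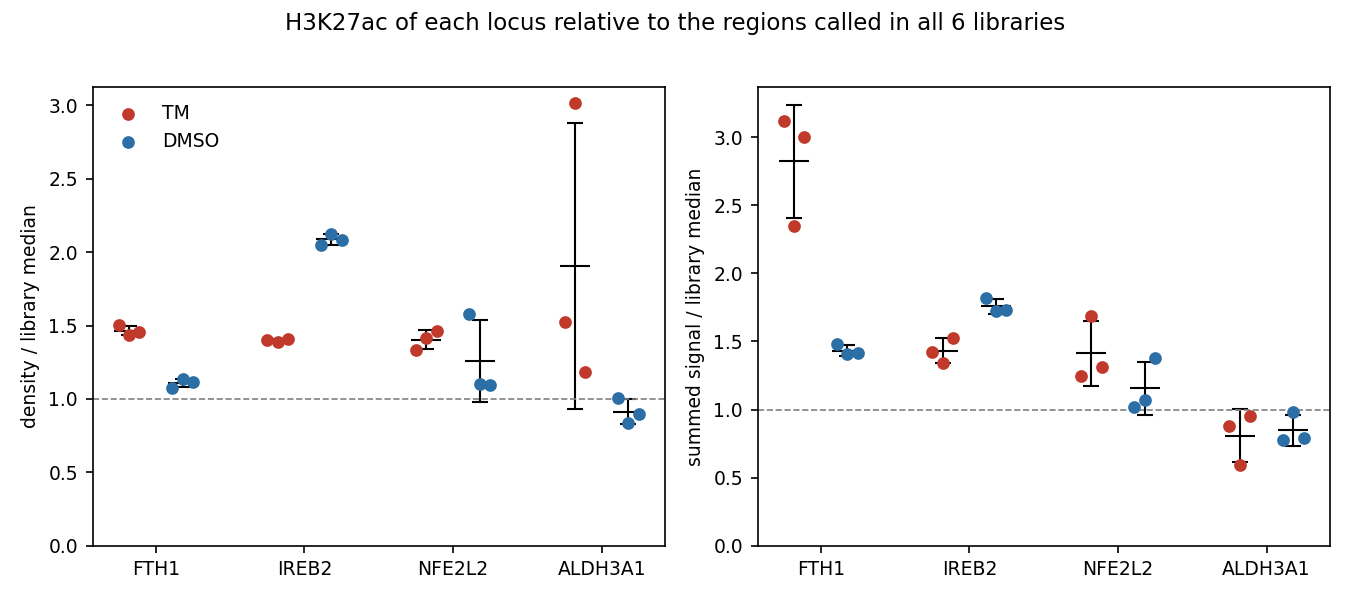
Density (left) and summed H3K27ac signal (right) of each locus over the library's median of the 670 regions called in all 6 libraries, which is the dashed line at 1. Each point is a library, TM left of DMSO, with the mean and SD (n = 3); FTH1 stands higher in TM in both panels, IREB2 lower in both, and the NFE2L2 points overlap.

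NFE2L2 was named in 0 of 3 TM lists and in 2 of 3 DMSO lists, yet a row lay over the gene in all 6 libraries. The rows of TM 1, TM 2, TM 3 and DMSO 3 were named MIR3128. This pattern of names, 0 of 3 TM and 2 of 3 DMSO, was shared by 4.65% of the 2002 linked genes. Genes named in no TM list and in 1 or more DMSO lists were 19.7% of the linked genes, and for 20.6% of them, as for NFE2L2, each TM library had a row in their merged region. Among the 670 regions, 30.4% carried more than 1 gene name over the 6 libraries, and 1.19% had no name common to TM and DMSO rows.

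The name followed the midpoint of the row. The MIR3128 start site lies 8121 bp downstream of the nearer of 2 NFE2L2 start sites used by the lists, and a row takes the name of the start site nearest to its midpoint. Set against the point halfway between these sites, the midpoints of TM 1 to TM 3 lay 2097.5, 14331.5 and 173.5 bp on the MIR3128 side. Those of DMSO 1 and DMSO 2 lay 929.5 and 7172.5 bp on the NFE2L2 side, and that of DMSO 3 lay 5228.5 bp on the MIR3128 side. TM 3 and DMSO 1 were thus named differently although their midpoints were both within 1 kb of the halfway point. Both NFE2L2 start sites and the MIR3128 start site lay inside the row in all 6 libraries.

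H3K27ac at NFE2L2 was not separated by group. The locus (chr2:178075576-178163417 as deposited) had a density over the library median of 1.33, 1.42 and 1.46 in TM 1 to TM 3, against 1.58, 1.10 and 1.10 in DMSO 1 to DMSO 3. DMSO 1 lay above every TM library and DMSO 2 and DMSO 3 lay below. The centred difference was 0.18 ± 0.18 on the log2 scale, and it was 0.35 without DMSO 1 and 0.09 without DMSO 2 or DMSO 3. As deposited, density was 1.07, 1.60 and 1.37 in TM 1 to TM 3, against 1.24, 0.707 and 0.836 in DMSO 1 to DMSO 3, which also overlapped, with an uncentred difference of 0.56. Summed signal was 46527, 111972 and 56024 in TM cells and 53753, 41003 and 73338 in DMSO cells, a centred difference of 0.29 ± 0.19. TM 2 was highest, and without it the difference was 0.15.

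Listed length at NFE2L2 varied within both groups. It was 43.6, 69.8 and 40.8 kb in TM 1 to TM 3, against 43.2, 58.0 and 87.7 kb in DMSO 1 to DMSO 3. The rows of TM 2 and DMSO 3 ended at nearly the same place downstream, and those of DMSO 2 and DMSO 3 reached furthest upstream. Peaks numbered 8, 10 and 5 in TM libraries and 6, 16 and 21 in DMSO libraries. The 6 rows had 40.3 kb in common, 45.8% of the 87.8 kb that any of them covered. In the lists the row ranked 236th, 135th and 193rd in TM and 365th, 343rd and 224th in DMSO.

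ALDH3A1 was short and dense in TM cells and long and less dense in DMSO cells, with about the same summed signal. The locus (chr17:19606086-19685245 as deposited) was 1 row named ALDH3A1 in each library. The listed length was 26.8, 11.5 and 36.7 kb in TM 1 to TM 3, against 51.6, 69.8 and 61.7 kb in DMSO 1 to DMSO 3. Stitched peaks numbered 2, 2 and 5 in TM libraries and 10, 12 and 13 in DMSO libraries. Neither measure overlapped between the groups, and the mean length was 25.0 ± 12.7 kb in TM cells and 61.0 ± 9.12 kb in DMSO cells (SD, n = 3 each). The log2 difference in length was −1.43, where the median over the 670 regions was −0.25, so TM rows were shorter in general and at ALDH3A1 more so.

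Density at ALDH3A1 was 1.22, 3.42 and 1.11 in TM 1 to TM 3, against 0.792, 0.537 and 0.681 in DMSO 1 to DMSO 3. Over the library median it was 1.52, 3.02 and 1.18 in TM cells and 1.00, 0.837 and 0.894 in DMSO cells. The groups did not overlap on either scale, but TM 2 stood far above the other TM libraries. The centred difference of 0.95 ± 0.41 on the log2 scale, the seventh highest of 670 regions, was 0.57 without TM 2. Summed signal was 32823, 39250 and 40801 in TM cells and 40875, 37499 and 42029 in DMSO cells, and the groups overlapped. Its centred difference of −0.09 ± 0.24 changed sign on leaving out TM 2 (0.11) or DMSO 2 (0.01).

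The row of TM 2 was at the same time the stretch that all 6 libraries listed. It was 11.5 kb long, 14.5% of the 79.2 kb covered by any row, and it held the 3 ALDH3A1 start sites used by the lists. Around it TM 1 extended upstream and TM 3 extended downstream, while the DMSO rows extended to both sides and shared 51.4 kb among themselves. Of the locus, 27.5 kb was listed in 1 or more DMSO libraries and in no TM library, and no bases were listed in TM alone. Since density is the summed signal over the listed length, a higher density on the same stretch and a narrower listing of it cannot be told apart here. The rank of the row was 458th, 840th and 366th in TM lists and 550th, 394th and 560th in DMSO lists.

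**Figure D3:**
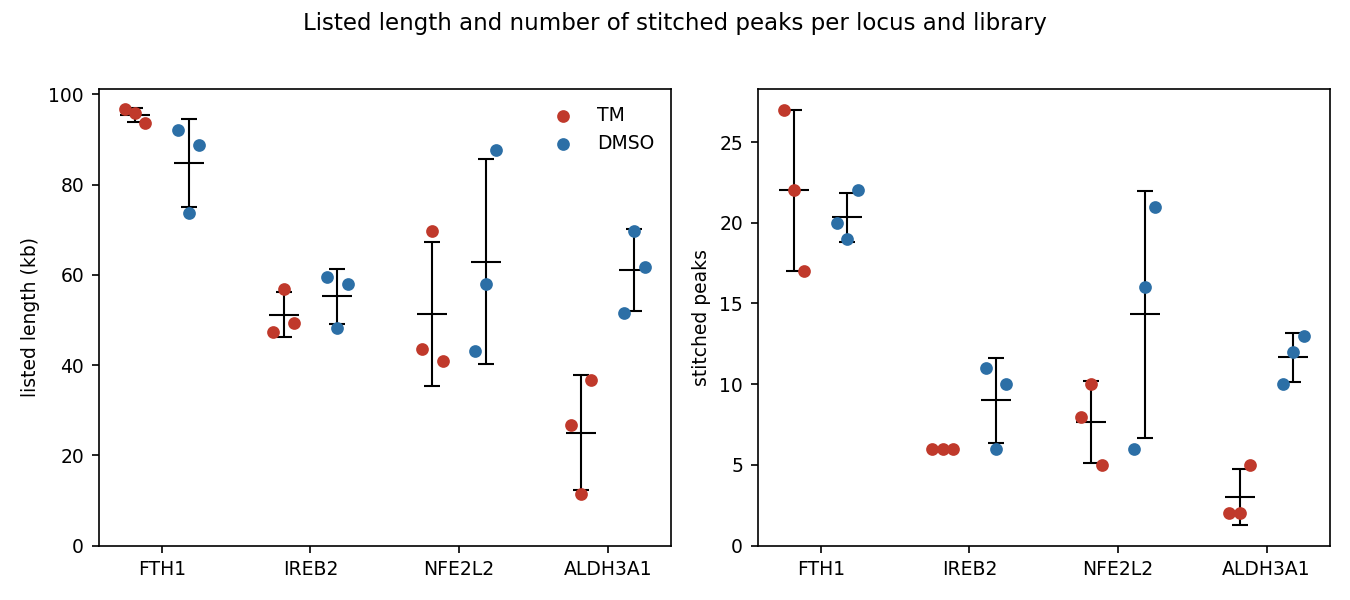
Listed length in kb (left) and number of stitched peaks (right) of each locus, by library, TM left of DMSO, with the mean and SD (n = 3). At ALDH3A1 the TM rows span 11.5 to 36.7 kb with 2 to 5 peaks, all below the DMSO rows, and at FTH1 the lengths are 93.7 kb or more in TM.

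The libraries of both groups were also apart at many other regions. Centred density did not overlap and was higher in TM at 2 loci, FTH1 and ALDH3A1, a state shared by 16.7% of the 670 regions, and was lower at 1 locus, IREB2, as in 21.5%. On the deposited scale FTH1 and ALDH3A1 were again higher without overlap, as were 38.8% of the regions, and no locus was lower without overlap (0.597%). For centred summed signal FTH1 was higher and IREB2 lower without overlap (28.4% and 22.4% of regions). As deposited, the summed signal was higher without overlap at FTH1 only (12.5%), and no locus was lower without overlap (6.12%). Listed length was higher at FTH1 (4.33% of regions) and lower at ALDH3A1 (36.6%), and the number of peaks was lower at ALDH3A1 (54.3%). These comparisons chose the loci, and nothing further is read from the counts.

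**Figure D4:**
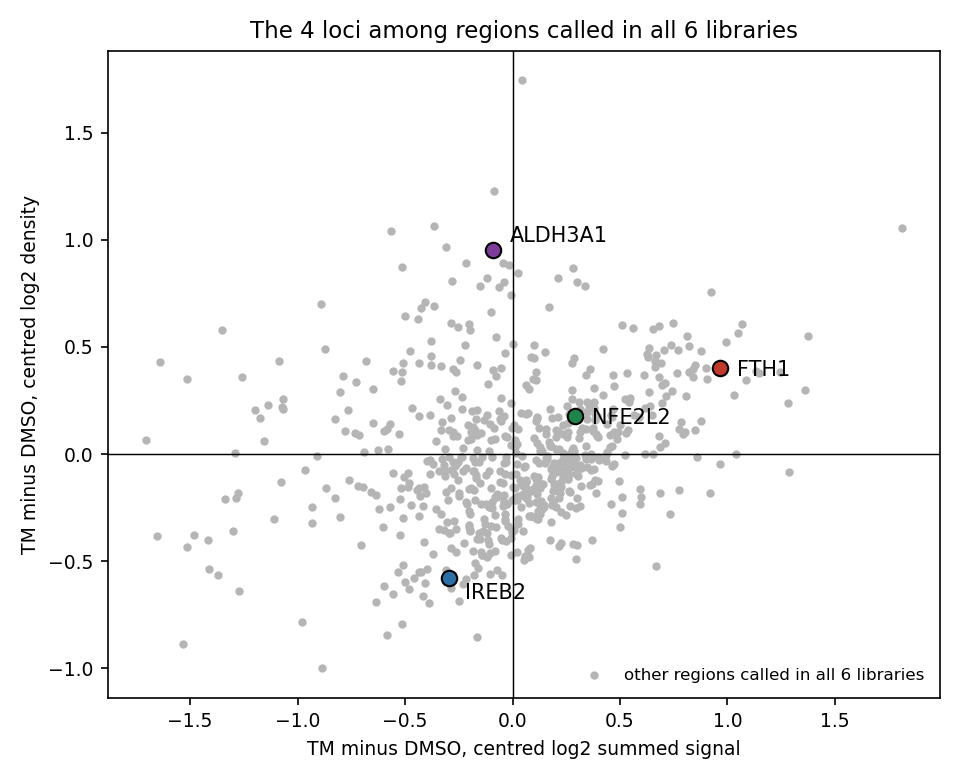
Difference between TM and DMSO in centred log2 density (y axis) against that in centred log2 summed signal (x axis), for the 670 regions called in all 6 libraries (grey points) and the 4 loci (coloured). FTH1 lies at 0.97 and 0.40, IREB2 at −0.30 and −0.58, NFE2L2 at 0.29 and 0.18, and ALDH3A1 at −0.09 and 0.95 (summed signal first).

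The regions whose 6 centred densities were most like those of a locus were taken as the 5 nearest of 669 by Euclidean distance on the log2 scale. For FTH1 the nearest was a region named for DUSP1, a phosphatase of MAP kinases, and ERGIC1 among other names (distance 0.16), followed by FAM50B, by BCL10, CCN1 and DDAH1, by PGAM1P5 and by LURAP1L. For IREB2 it was SEC22B, a protein of vesicle transport between the endoplasmic reticulum and Golgi (0.34), then HOXA10, MIR30A, ZMAT3 and LINC00882. For NFE2L2 it was the EFEMP1 region (0.31), and FAM50B, SLC38A4-AS1 and MBNL2 were also among the 5. ALDH3A1 had no close match, since its nearest region, EPS15, was 0.70 away, and GARIN2, NBPF1, MYOT and PAWR followed. The FAM50B regions of FTH1 and NFE2L2 were separate ones.

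The wider iron and redox programme was followed through 4 lists of 124 genes that leave out the 4 loci above. A row of any library was linked to 28 of them, to 18 in 2 or more libraries and to 5 in all 6. Of the 28, 7 were named in 2 or 3 TM and 0 DMSO libraries (13.7% of all linked genes were), and 5 in 0 TM and 2 or 3 DMSO libraries (9.34%). In addition, 8 lay in regions called in all 6 libraries, where limma with Benjamini-Hochberg adjustment over the 670 regions called 1 density higher and 2 lower. Across all 670 regions it called 6.72% higher and 10.6% lower on the centred scale, and 19.9% and 0.149% without centring. For summed signal limma called 0 of the 8 in either direction, with 2 at an unadjusted p under 0.05, against 18.7% higher and 13.7% lower over all regions on the centred scale and 1.04% and 3.28% without centring.

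Of 40 iron-handling genes 4 were linked. STEAP4, a metalloreductase that reduces iron and copper, was named in all 6 libraries, with a density over the library median of 0.726, 0.798 and 0.687 in TM libraries and 1.13, 1.02 and 0.888 in DMSO libraries. The centred difference was −0.46 ± 0.12 on the log2 scale (limma adjusted p = 0.031), but −0.07 without centring (limma adjusted p = 0.82). The call was also lost with the stricter list threshold (limma adjusted p = 0.33) and on leaving out TM 1, TM 3, DMSO 1 or DMSO 2, where the largest adjusted p from limma was 0.11. CISD1, an iron-sulfur protein of the outer mitochondrial membrane, was named in TM 2 and TM 3 (summed signal 41123 and 23764) and in no DMSO library. CP and SLC11A2 were each named in 1 DMSO library and in no TM library. By merged region they differed, since the region of SLC11A2 was called in DMSO 2 only. The region at CP was called in DMSO 1 to DMSO 3, with summed signals of 27936, 44433 and 40810, and the TM lists held no row there. That pattern was held by 5.44% of merged regions.

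Of the lists, the NRF2 pathway had the largest share linked, 17 of 46 genes, with 11 linked in 2 or more libraries and 4 in all 6. The share over all genes was not computed, so these list shares have no background to be read against. SLC7A11, the cystine importer that feeds glutathione synthesis, TXNRD1 (thioredoxin reductase), TKT (transketolase) and ABCC2, a conjugate exporter, were named in all 6 libraries. With ABCC3 they gave 5 regions called in all 6 libraries, of which limma called 0 in either direction for density or summed signal, with 1 at an unadjusted p under 0.05 for each. ABCC2 had a density over the library median of 2.17, 2.89 and 2.24 in TM libraries and 1.23, 2.38 and 1.03 in DMSO libraries, which overlapped, with a centred difference of 0.74 ± 0.29 (limma adjusted p = 0.11). The summed signal at ABCC2 had a centred difference of −0.005 ± 0.16 (limma adjusted p = 0.98). Its log2 difference in listed length was −1.14, where the median over the 670 regions was −0.25. SLC7A11 had a summed signal of 32815, 77645 and 45256 in TM libraries and 40158, 30666 and 42168 in DMSO libraries, with a centred difference of 0.39 ± 0.13 (limma adjusted p = 0.058). For TXNRD1 and TKT the centred differences in density were −0.02 ± 0.11 and −0.24 ± 0.12 (limma adjusted p = 0.89 and 0.19).

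Among NRF2 pathway genes named in some libraries, partners and targets stood on both sides. NFE2L1, the sister factor of NRF2, was named in 3 TM libraries (summed signal 44703, 58158 and 43676) and in DMSO 3 only (26608). MAFK, a small MAF partner of NRF2, and SQSTM1, the autophagy receptor p62 that binds KEAP1, were named in TM 1 and TM 3 and in no DMSO library. Their summed signals were 23595 and 20038 for MAFK and 20323 and 21785 for SQSTM1, below the lowest listed value of TM 2 (26265), DMSO 1 and DMSO 3, so on the deposited scale a like signal could not have been listed there. The lowest listed value of DMSO 2 (16747) was below these signals, so a like signal could have been listed in DMSO 2. The aldo-keto reductases were divided, AKR1C3 being named in 2 TM and 0 DMSO libraries, AKR1B10 in 0 TM and 3 DMSO, and AKR1C1 in 0 TM and 2 DMSO. ABCC1, an exporter of glutathione conjugates, was named in 2 TM and 0 DMSO libraries. By merged region, UGDH, named in 1 TM library, was called in 3 TM and 0 DMSO libraries, as were 7.57% of regions. Its summed signals were 19337, 35609 and 24806, and that of TM 1 was below the lowest listed value of DMSO 1 and DMSO 3. NQO1 was named in 1 DMSO library, and its region was called in TM 1, TM 3 and DMSO 2.

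Of 18 other aldehyde dehydrogenases 3 were linked. A region named once for ALDH1A3, an enzyme of retinoic acid synthesis whose start site was 138 kb away, had a density over the library median of 2.11, 1.58 and 2.07 in TM libraries and 1.13, 1.36 and 1.02 in DMSO libraries. It was higher in TM by 0.71 ± 0.17 (limma adjusted p = 0.022), a call lost without TM 3, DMSO 1 or DMSO 3 and with the stricter list threshold. The largest adjusted p from limma was 0.28, without DMSO 3, where the difference was 0.37. Its summed signal lay the other way, at 59019, 90269 and 60618 in TM libraries and 108433, 61926 and 113748 in DMSO libraries, with a centred difference of −0.41 ± 0.13 (limma adjusted p = 0.054). The log2 difference in listed length of this region was −1.505. A region named once for ALDH3B1 was lower in TM, at 0.796, 0.684 and 0.660 in TM libraries and 0.949, 1.01 and 0.938 in DMSO libraries. Its difference of −0.44 ± 0.10 (limma adjusted p = 0.023) was −0.06 without centring (limma adjusted p = 0.86), and the call was lost without TM 3 or any DMSO library (limma adjusted p from 0.062 to 0.078). With the stricter list threshold the ALDH3B1 region was no longer called in all 6 libraries, so it had no value. ALDH1A2 was named in 0 TM and 2 DMSO libraries, as was ALDH1A3 over its 2 regions.

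Of 20 genes of lipid peroxidation and ferroptosis 4 were linked, none in a region called in all 6 libraries. SLC3A2, the heavy chain that carries SLC7A11 to the membrane, was named in 3 TM libraries (summed signal 19077, 30410 and 21405) and in 0 DMSO libraries. SAT1, the spermidine and spermine acetyltransferase that promotes lipid peroxidation, was also named in 3 TM libraries (20218, 34873 and 21538) and in 0 DMSO libraries. Names in 3 TM and 0 DMSO libraries were carried by 6.94% of all linked genes. In TM 1 and TM 3 both signals were below the lowest listed value of DMSO 1 (24793) and DMSO 3 (24383) and above that of DMSO 2 (16747). VDAC2, a channel of the outer mitochondrial membrane, was named in 0 TM and 3 DMSO libraries, a pattern of 4.7% of linked genes, although a merged region at VDAC2 was called in TM 1 and TM 3 under another name.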

How the data were processed

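H3K27ac ChIP-seq tables of 3 TM and 3 DMSO libraries of HepG2 cells were used. The deposited summed signal of each row was a density in steps of 0.0001 per bp times the row length (100.0% of 7472 rows, tolerance 0.001 of a step). The authors called peaks with MACS-style names in each library, stitched them, kept rows above a library threshold and named each by the start site nearest its midpoint. CASAVA 1.4 is named in the submitters' processing notes, as are mm9 and hg38, without a role. No source used here gives the build of the coordinates, the stitching distance or the read depth. The study describes ranked signals of TM cells as input-normalized, and whether the deposited signals are is not stated. A control input library was not analysed here. Regions under the threshold are unlisted but can be acetylated, and stitching makes density depend on the listed length.

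Gene names were updated through RefSeq (GRCh38.p14), which matched 7434 of 7472 rows. Rows sharing 1 bp were merged over libraries, signals and lengths were summed, and log2 density and log2 summed signal were centred on each library's median of the 670 regions called in all 6. They were fitted with limma 3.58.1 (trend) in R 4.3.3, at a Benjamini-Hochberg adjusted p under 0.05. The same fit was also run on simulated data drawn from these values, and its outcome is not given here. With 3 against 3 libraries an exact permutation test cannot go below 0.1, and none was used. Errors of locus differences are standard errors over libraries. Genes of the lists linked in 2 or more libraries are named, and, after their values were seen, ABCC3, ALDH3B1, CP, SLC11A2, UGDH and NQO1. Alternatives were no centring, merging at 50% overlap, a threshold 1.25 times higher, the replicate number as a block, and leaving out each library. The loci, lists and tests were chosen with earlier results of these data known. Python 3.11.15, pandas 2.3.3, numpy 2.4.6 and matplotlib 3.10.9 were used. Some results that fall under the naming rule are left out of the text.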

Additional observations from a re-analysis of the deposited data

How the results depend on the processing

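Of the values computed under the alternatives, 110 stayed within 1 SD between replicates of the main value or, for counts, within 1.5 times it, 30 moved further and 2 changed sign. At NFE2L2, where that SD was wide, values within it still ranged from 0.09 to 0.35 in density. Without centring, limma called 133 regions higher and 1 lower in density (45 and 71 with centring), and 7 higher and 22 lower in summed signal (125 and 92). With the stricter list threshold it called 26 higher in density, and 82 higher and 57 lower in summed signal. Leaving out 1 library gave 23 to 60 higher and 28 to 84 lower in density, and 64 to 135 higher and 55 to 116 lower in summed signal. Regions in every TM list and no DMSO list numbered 135, and 142 to 203 with 1 library left out (203 without TM 1). The reverse numbered 97, and 102 to 150 (150 without TM 2). With a library left out the condition covers fewer libraries and is looser, so the higher counts do not measure stability.

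At FTH1 the density difference of 0.40 was 0.78 without centring, 0.48 with the stricter threshold and 0.38 to 0.42 on leaving out a library. The summed signal difference of 0.97 was 1.19 with the stricter threshold and 0.91 to 1.09 on leaving out a library. Without DMSO 3 the near and far stretches were separate regions and were summed. Counted by overlapping rows of any name, NFE2L2 was listed in 6 libraries and not in 2. The ALDH3A1 difference in summed signal reversed to 0.11 without TM 2 and to 0.01 without DMSO 2, and ran from −0.23 to 0.11 on leaving out a library. The cause was not tested.

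The replicate numbers did not pair the libraries (same-number correlations of deviations −0.008, −0.047 and −0.026). With the replicate number as a block limma called 46 higher and 49 lower in density, and 75 higher and 60 lower in summed signal. The density calls at STEAP4, ALDH1A3 and ALDH3B1 held under the block, and that at ELF3 did not (limma adjusted p = 0.076). Precision is limited by 3 libraries per group, list thresholds that differ by library and unknown depth.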
